A study of Homo sapiens with 9 samples.

Results

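The stretch of chromosome 10 from 30 to 75 Mb (hg19) held 838 of the 19861 p300 peaks of the series. A peak belonged to it when its midpoint lay at 30 Mb or beyond and below 75 Mb. Members were thus chosen by measured peak positions in all 5 lists, so their number and density are given as a description. Tests are kept to the comparison of treated with untreated lists and to width, score rank and sharing. The choice did not use width or score rank. Sharing comes from peak positions, and denser peaks overlap more often by chance, so it is not independent of the choice. At the lower limit the last peak outside was at chr10:29768233-29768525, at the 54.3rd score percentile of treated list 2, and the first inside was at chr10:30113180-30113372, at the 58.7th percentile of treated list 1. At the upper limit the last peak inside was at chr10:74954345-74954750, at the 58.1st percentile of treated list 2, and the first outside was at chr10:75038419-75038682, at the 20.7th percentile of treated list 1.

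The lists come from PC3 cells, an established line from a metastatic human prostate carcinoma. The 3 treated libraries came from cells given 30 µM MnTE-2-PyP (T2E), a porphyrin with manganese that acts as a mimic of superoxide dismutase, over 24 h, and the 2 untreated libraries from cells given none. Both groups received 20 Gy of radiation and were fixed 1 h later, so unirradiated cells are not part of the comparison. Libraries are described as biological replicates of 1 cell line, and the 4 input libraries are not analysed here. Whole lists held 4922, 10059 and 528 peaks in treated and 2313 and 2039 in untreated libraries, and read depth is unknown, because a peak list holds no read counts.

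p300 is a histone acetyltransferase and coactivator without a DNA-binding specificity of its own, which transcription factors bring to enhancers and promoters. Its peaks are therefore usually read as a map of active regulatory DNA. The stretch spans the centromere of chromosome 10, which hg19 represents largely by unsequenced gap, together with parts of both arms. Genes known to lie on it include ZEB1, a repressor of epithelial genes, NRP1, a co-receptor of semaphorins and vascular endothelial growth factor, CXCL12, a chemokine, PCDH15, a protocadherin of sensory hair cells, and JMJD1C, a protein with a histone demethylase domain. PC3 cells carry a rearranged karyotype with unequal copies of chromosome segments. No annotation of hg19 was used, so no peak was assigned to a gene.

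p300 peaks were denser here than over the genome in every list, with or without the drug. The stretch held 314, 312 and 18 peaks in treated lists 1, 2 and 3, and 109 and 85 in untreated lists 1 and 2. This was 6.98, 6.93 and 0.4 peaks per Mb in the treated and 2.42 and 1.89 in the untreated lists. As a share of the list it was 6.38% (95% Wilson interval 5.73 to 7.10%), 3.10% (2.78 to 3.46%) and 3.41% (2.17 to 5.32%) in the treated lists. The untreated lists had shares of 4.71% (3.92 to 5.65%) and 4.17% (3.38 to 5.13%). These intervals cover counting error only. The stretch makes up 1.5% of the span between the first and last peak of all chromosomes, so the lists held 4.25, 2.06 and 2.27 times that share in treated and 3.14 and 2.77 times in untreated cells. Treated list 1 was above and treated lists 2 and 3 below both untreated lists, so the groups overlapped.

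The share did not move with MnTE-2-PyP beyond the spread between lists. It averaged 4.30% ± 1.81 (SD, n = 3) in treated and 4.44% ± 0.385 (SD, n = 2) in untreated lists, a difference of -0.14 percentage points (exact two-sided permutation p = 1). That test runs over the 10 splits of the 5 lists, and its smallest possible p is 0.1. The sign became positive without treated list 2 (0.45), treated list 3 (0.30) or untreated list 1 (0.13). The number of peaks averaged 214.7 ± 170.3 (SD, n = 3) in treated and 97.0 ± 17.0 (SD, n = 2) in untreated lists, and the log2 ratio was 1.15 (p = 0.4, exact permutation). With the 528 top-scoring peaks of every list this log2 ratio was -0.26.

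Direction differed between the pairs of lists whose peak names carry the same run identifier. This identifier is the end of the peak name, once the peak and barcode numbers are taken off. That it marks a run or batch is inferred from the names and not stated by the sample labels. In the first pair treated list 1 had 314 peaks against 109 in untreated list 1, a log2 ratio of 1.53, and its share was higher by 1.67 points. In the second pair treated list 3 had 18 peaks against 85 in untreated list 2, a log2 ratio of -2.24, and its share differed by -0.76 points. Treated list 3 was also the shortest list as a whole. Each pair has 1 list per group, so neither was tested.

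**Figure D1:**
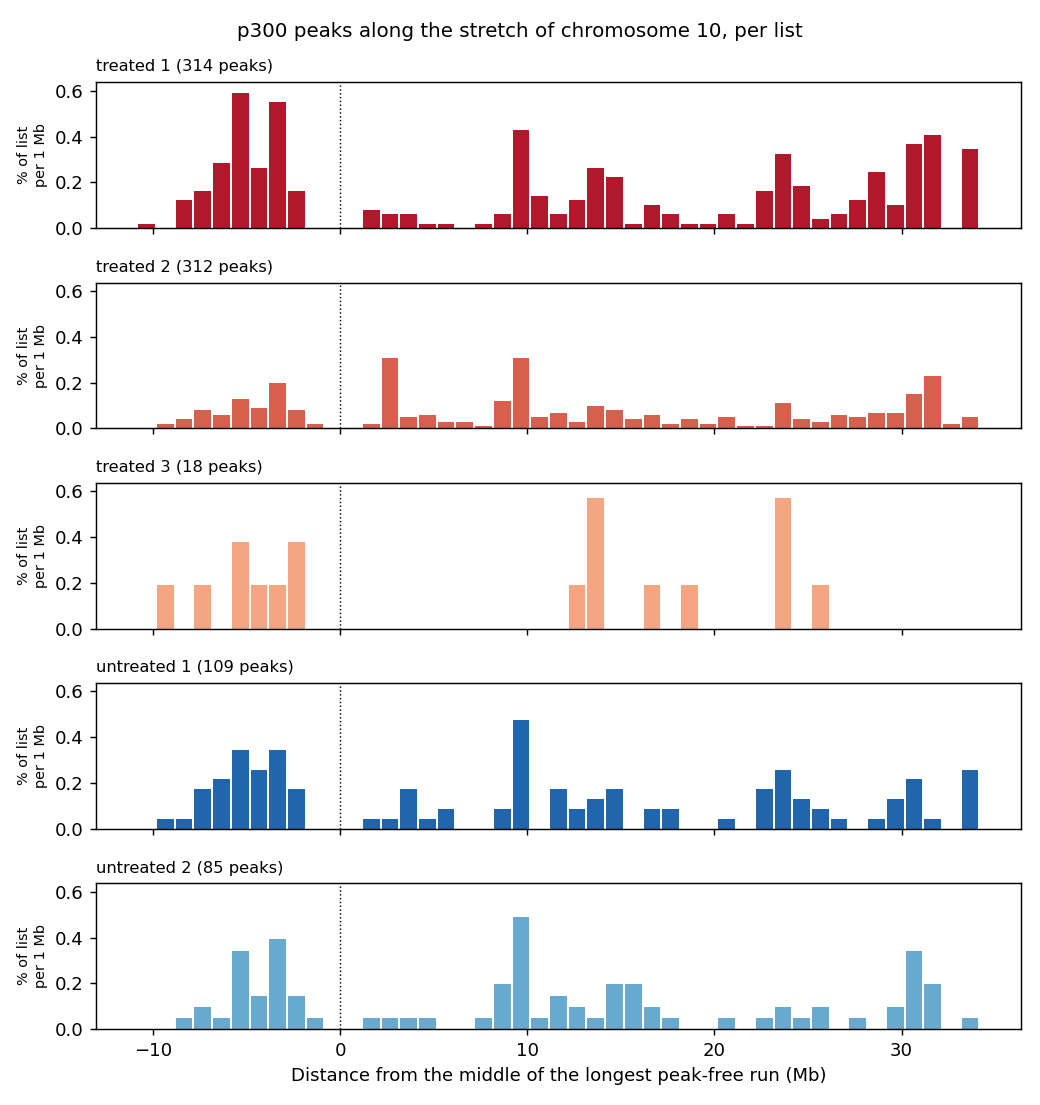
Percentage of each list's peaks in every 1-Mb bin of the stretch (y axis), against the distance of the bin from the middle of the longest peak-free run in Mb (x axis, dotted line at 0), with treated lists above untreated ones. The rise left of the dotted line reaches 0.589% per Mb in treated list 1, while treated list 2 stays at or under 0.199% there and has its own bar of 0.308% just right of the line.

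Peaks were not spread evenly within the stretch. The longest run without a peak of any list was 3.61 Mb, from chr10:39034858-42640713. The longest run of treated list 1 (3.66 Mb), treated list 2 (3.69 Mb) and untreated list 1 (4.45 Mb) lay at the same place. Untreated list 2 had no peak in the 3.61-Mb run either. Its longest run was slightly longer and lay elsewhere, from 45192610 to 48872104 (3.68 Mb). Treated list 3 had one of 14.4 Mb, from 38952671 to 53375911, which includes the 3.61-Mb run. Of 45 bins of 1 Mb, 2 were empty in all lists, and 6, 3 and 33 were empty in treated lists 1, 2 and 3, against 13 and 12 in untreated lists 1 and 2. Overlap of the run with the unsequenced centromere gap was not tested, as the gap's coordinates were not used.

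The side before the run was denser than the side after it in all 5 lists. Treated list 1 had 11.7 peaks per Mb before and 6.43 after, treated list 2 had 7.97 and 7.42, and treated list 3 had 0.885 and 0.309. Untreated list 1 had 4.10 before and 2.23 after, and untreated list 2 had 2.88 and 1.82. The ratio of the sides was thus 1.83, 1.07 and 2.87 in the treated and 1.84 and 1.58 in the untreated lists. The ratio of treated list 3 rests on 8 peaks before and 10 after the run. Treated list 2 was the flattest of the 5, and 31 of its 240 peaks after the run lay in the single bin at 43 to 44 Mb.

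The 3 break points that left the least Poisson deviance over all lists lay at 33, 39 and 49 Mb. They divide the stretch into segment A (30 to 33 Mb), segment B (33 to 39 Mb), segment C (39 to 49 Mb, which holds the peak-free run) and segment D (49 to 75 Mb). Fitted to 1 list at a time, they were 33, 39 and 49 Mb in untreated list 1 and 35, 39 and 49 Mb in untreated list 2. Treated list 1 alone gave 34, 39 and 50 Mb. Treated list 2 alone gave 33, 51 and 71 Mb and treated list 3 alone 39, 53 and 67 Mb, the last from 18 peaks. A break at 39 Mb therefore came out of 4 of the 5 lists. The peak-free run starts at 39034858, and only bins wholly inside it were left out of the fit. The bin at 39 to 40 Mb, mostly inside the run, stayed in. The position of this break thus cannot be told apart from the edge of the run.

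Segment B was the densest of the 4 in every list. It held 99, 64 and 7 peaks in treated lists 1, 2 and 3, or 16.5, 10.7 and 1.17 per Mb. Untreated lists 1 and 2 held 35 and 24 there, or 5.83 and 4.0 per Mb. Relative to the genome span, segment B had 10.0, 3.18 and 6.62 times the average share in the treated and 7.55 and 5.88 times in the untreated lists. The step into it at 33 Mb was 7.07-fold, 5.33-fold and 3.50-fold in the treated lists and 8.75-fold and 12.0-fold in the untreated lists, with only 7, 6 and 1 treated and 2 and 1 untreated peaks in segment A. Just outside the stretch, from 20 to 30 Mb, the lists had 0.3, 0.9 and 0.1 peaks per Mb in treated and 0.2 and 0.1 in untreated cells.

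The step down at 39 Mb separated treated list 2 from the others. Outside the peak-free run, segment C had 2.03 peaks per Mb in treated list 1, 1.41 in untreated list 1 and 0.938 in untreated list 2, which is 8.12-fold, 4.14-fold and 4.26-fold less than segment B of the same list. Treated list 2 had 8.29 peaks per Mb in segment C, 1.29-fold less than in its segment B. Treated list 3 had 0 of its 528 peaks in segment C, and a count of 0 allows up to 0.568% of that list.

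A single bin held many of these peaks of treated list 2. From 43 to 44 Mb treated list 2 had 31 peaks, against 3 in treated list 1, 0 in treated list 3 and 1 in each untreated list. The 31 peaks ran from chr10:43150795-43882746 with a median spacing of 13.5 kb, and none overlapped a peak of another list. Their median score percentile was 22.5, and 16 of the 31 lay under the 25th percentile of their list, so they ranked low in that list. Without that bin treated list 2 had 22 peaks in segment C, or 4.08 per Mb outside the peak-free run. Over the genome, 9 of 1019 bins with 5 or more peaks had at least 20 peaks of treated list 2 and at most 5 of the other lists together, among 66 bins with at least 20 peaks of treated list 2. This bin was the only such bin in the stretch.

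Segment D held most members of every list, as an even spread would, since it makes up 26 of the 45 Mb of the stretch. It had 195, 189 and 10 peaks in the treated and 63 and 54 in the untreated lists, or 62.1%, 60.6% and 55.6% of the members of the treated and 57.8% and 63.5% of those of the untreated lists. Its density relative to the genome was 4.56, 2.16 and 2.18 times in the treated and 3.14 and 3.05 times in the untreated lists. The bin at 50 to 51 Mb, with 21, 31 and 0 treated and 11 and 10 untreated peaks, was the densest of segment D in every list but treated list 3. The stretch ended at a further step, from 17, 5 and 0 treated and 6 and 1 untreated peaks at 74 to 75 Mb, to 70, 28 and 3 treated and 15 and 11 untreated peaks at 75 to 76 Mb.

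**Figure D2:**
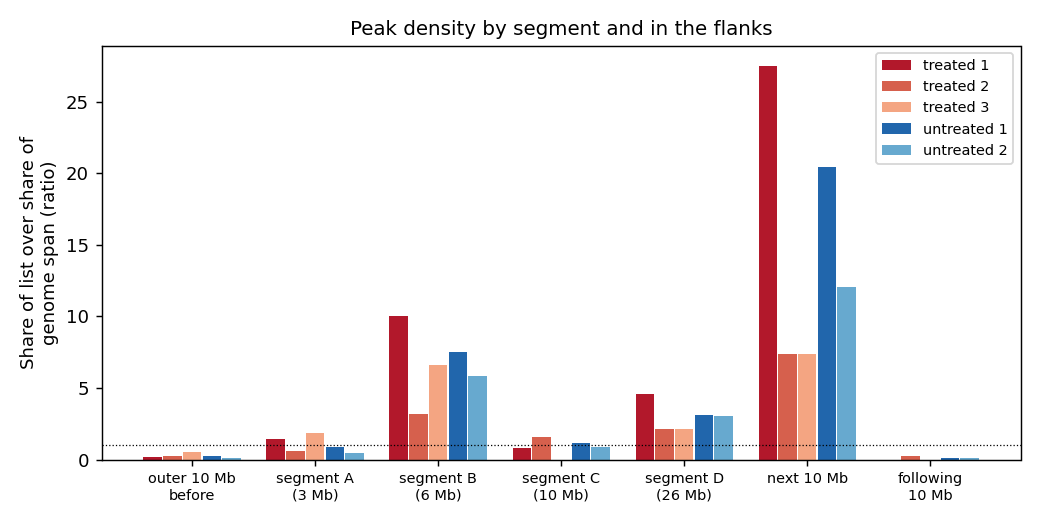
Share of each list's peaks divided by the share of the genome span (y axis, ratio, dotted line at 1) for segments A (30 to 33 Mb), B (33 to 39 Mb), C (39 to 49 Mb) and D (49 to 75 Mb) and for 10 Mb on one side and the next 2 runs of 10 Mb on the other; bars are lists. Segment B reaches 10.0 in treated list 1 and 3.18 in treated list 2, and the adjoining 75 to 85 Mb reaches 27.5 and 7.41 in those lists.

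The 5 densest bins by mean share of the lists were at 35 to 36 Mb, 50 to 51 Mb, 37 to 38 Mb, 64 to 65 Mb and 54 to 55 Mb. At 35 to 36 Mb there were 29, 13 and 2 peaks in the treated and 8 and 7 in the untreated lists. The shares were 0.589%, 0.129% and 0.379% in the treated and 0.346% and 0.343% in the untreated lists, so the untreated lists lay inside the treated range. At 37 to 38 Mb there were 27, 20 and 1 treated and 8 and 8 untreated peaks. Treated list 3 put 3 of its 18 members each into the bins at 54 to 55 Mb and 64 to 65 Mb.

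Few bins separated the groups. A bin counted when the share of every treated list lay above, or below, that of both untreated lists, among bins with 5 or more peaks. Of 35 such bins in the stretch, 1 was higher in the treated lists, against 2.45% of 1019 bins of the genome, and 2 were lower, against 9.91% of the genome's bins. The bin at 59 to 60 Mb had 1, 4 and 1 treated and 0 and 0 untreated peaks. At 50 to 51 Mb the shares were 0.427%, 0.308% and 0% in the treated and 0.476% and 0.490% in the untreated lists, and at 52 to 53 Mb they were 0.0610%, 0.0696% and 0% in the treated and 0.173% and 0.147% in the untreated lists. Both lower bins had 0 peaks of treated list 3, which had 0 peaks in 33 of the 45 bins. Leaving out treated lists 1, 2 or 3 gave 1, 5 and 8 higher and 10, 3 and 3 lower bins, and leaving out untreated lists 1 or 2 gave 3 and 1 higher and 4 and 7 lower bins.

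Bin counts ran together across lists to different degrees. Over the 43 bins not wholly inside the peak-free run, Spearman's rho was 0.70 between treated lists 1 and 2, 0.28 for treated list 3 with either of them and 0.64 between the untreated lists. Between the groups it was highest for treated list 1 and untreated list 1 (0.76), which share a run identifier, and lowest for treated list 3 and untreated list 2 (0.28), which share another. These values are descriptions: bins of 1 list share its library, and treated list 3 had only 18 peaks.

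Most sites came from 1 library, as over the genome. Merging peaks that overlapped by 1 bp or more gave 732 regions in the stretch, of which 647 (88.4%) came from a single list, against 89.6% over the genome, and 69 (9.43%) from 2 lists, against 6.20% over the genome. Regions in 3 or more lists numbered 16, or 2.19%, against 4.23% of the 16701 regions of the genome. Of these 16, 13 were in 3 lists, 2 in 4 lists and 1 in all 5.

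As a percentage of the list with fewer members, overlap in the stretch was 11.9% (95% Wilson interval 8.73 to 15.9%) between treated lists 1 and 2, 16.7% (5.84 to 39.2%) between treated lists 1 and 3 and 44.4% (24.6 to 66.3%) between treated lists 2 and 3. The untreated lists overlapped at 7.06% (3.28 to 14.6%). Between the groups the 6 values ran from 11.1% to 22.2%. Outside the stretch the 10 values, as a percentage of the list with fewer peaks there, ran from 17.2% to 74.9%. Taking the list that is shorter over the genome in both places, overlap was lower in the stretch in 10 of 10 pairs, which share lists and are not independent. Taking the longer list it was lower in 7 of 10. The other 3 were percentages of treated list 2, at 11.9% in the stretch against 9.78% in the rest with treated list 1, 7.05% against 6.90% with untreated list 1 and 5.77% against 5.31% with untreated list 2. The mean was 20.0% for pairs within a group and 17.6% for pairs across groups, which differ by 2.45 points (p = 0.4 by an exact permutation test with 1 side, smallest possible 0.1). The difference rested on treated list 2 and treated list 3: it was -4.13 points without the first and -8.54 without the second.

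**Figure D3:**
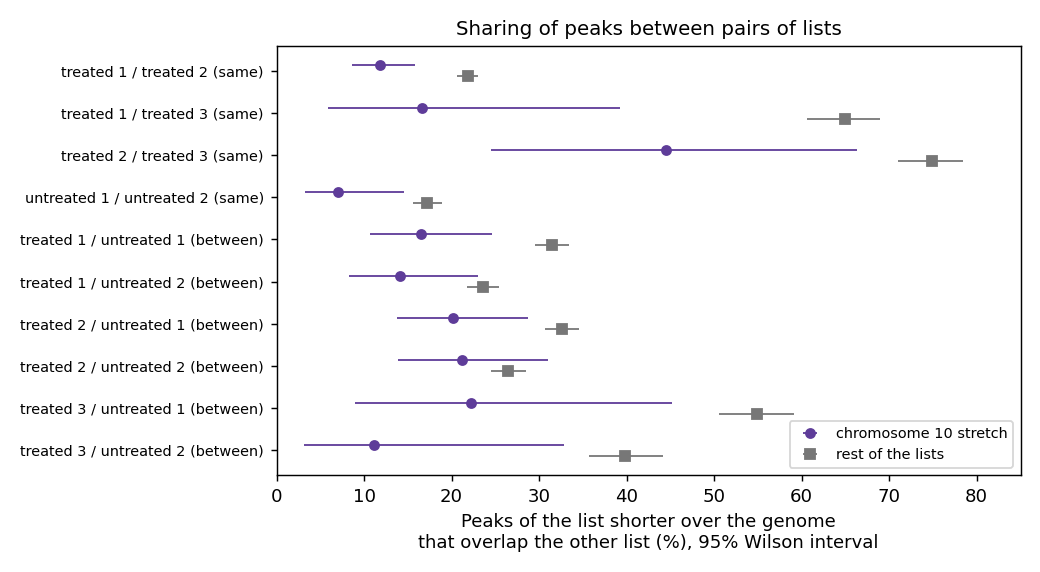
Percentage of the peaks of the list that is shorter over the genome that overlap the other list by 1 bp or more (x axis, with 95% Wilson intervals) for the 10 pairs of lists (y axis; "same" and "between" refer to treatment group), in the stretch (circles) and in the rest of the lists (squares). With this denominator each circle lies left of its square, with 7.06% against 17.2% for the untreated pair.

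Counted over single lists, 17.2%, 21.2% and 50% of the members of treated lists 1, 2 and 3 overlapped any other list, against 28.4%, 13.9% and 85.9% of the rest of those lists. In untreated lists 1 and 2 it was 33% and 30.6% of members, against 43.4% and 33.3% of the rest. Treated list 2 was the exception, with members shared more often than its other peaks. An overlap counts for both lists, so the differences of the 5 lists depend on each other, which the sign-flip tests of sharing do not allow for. The mean difference was -10.6 points (exact two-sided sign-flip permutation p = 0.1875 over 5 lists, smallest possible 0.063), with -19.1 without treated list 2 and -4.37 without treated list 3. It was -16.5 points with peaks above the median of the pooled scores, where members were shared less in 5 of 5 lists (exact sign-flip permutation p = 0.063). Against the rest of chromosome 10 outside 75 to 85 Mb it was -41.2 points (exact sign-flip permutation p = 0.063), with 38, 145 and 18 peaks in that reference in the treated and 31 and 29 in the untreated lists. In the adjoining stretch from 75 to 85 Mb sharing was higher in all 5 lists. There it was 29.6%, 45.8% and 92.3% in the treated and 40.5% and 58.5% in the untreated lists, a mean difference of -23.0 points for 30 to 75 Mb minus 75 to 85 Mb (exact sign-flip permutation p = 0.063). Peaks were also denser there, at 45.2, 24.9 and 1.3 per Mb in the treated and 15.8 and 8.2 in the untreated lists, which raises overlap by chance, and the part of density in that difference was not tested.

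The region found in all 5 lists was at chr10:57448177-57448702, 526 bp wide. Its score percentile was 85.6, 94.4 and 84.8 in treated lists 1, 2 and 3, and 83.1 and 96.5 in untreated lists 1 and 2. It was the highest-scoring member of treated list 3 and of untreated list 2. One such region in 732 is 0.137%, against 0.886% of the regions of the genome.

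The regions in 4 lists were at chr10:35310426-35310855 and chr10:54981567-54982124. The first lay in segment B and was in every list but treated list 3, at the 95.2nd and 79.5th percentile of treated lists 1 and 2 and the 87.3rd and 72.4th of the untreated lists. The second was in every list but untreated list 2, at low to middling ranks: the 32nd, 52.1st and 11.7th percentile in the treated lists and the 46.0th in untreated list 1. The 13 regions in 3 lists were 310 to 669 bp wide and had mean percentiles of 38.8 to 91.2 with a median of 76.8.

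The strongest peaks of the other lists were also shared. In treated list 1 the highest-scoring member was at chr10:48872105-48872439, at the 98.3rd percentile, and the same region was at the 97.2nd percentile of treated list 2 and the 71.7th of untreated list 2. In treated list 2 it was at chr10:45192236-45192715, at the 99.2nd percentile, with the 96.3rd in treated list 1 and the 58.2nd in untreated list 2. Untreated list 1 had its highest-scoring member at chr10:31031001-31031407, at the 98.8th percentile, and that region was at the 97.5th and 56.6th percentile of treated lists 2 and 3. The first 2 of these lay in segment C and the last in segment A, both less dense than segment B in every list.

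Few regions followed treatment. A presence in all 3 treated lists and in neither untreated list was found for 1 region, or 0.137%, against 0.24% of the genome's regions. It was at chr10:64368081-64368519, at the 73.2nd, 36.5th and 6.63rd percentile of treated lists 1, 2 and 3. Leaving out treated list 3 gave 26 such regions, treated list 1 gave 4 and untreated list 1 gave 2. In both untreated and no treated list there were 2, or 0.273%, against 0.186% over the genome. One, at chr10:57387984-57388539, was at the 71.0th and 63rd percentile of untreated lists 1 and 2 and lay 59.6 kb before the region found in all 5 lists. The other, at chr10:74947286-74947736, was at the 71.4th and 21.2nd percentile. Without untreated list 1 or 2 the remaining untreated list alone held 61 and 75 regions, and without treated list 1 or 2 the pair held 3. No single region was tested, because 3 lists against 2 allow no p under 0.1 in Fisher's exact test.

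At least 2 treated lists but neither untreated list held 29 regions, or 3.96%, against 2.93% over the genome. Of these, 25 were in treated lists 1 and 2, the longest lists, 3 in treated lists 2 and 3 and 1 in all 3. Segment B held 6 of its 202 regions in this set and segment D 23 of 444, while segments A and C held 0 of 13 and 0 of 73. The best-ranked was at chr10:54351922-54352218, at the 82.4th and 94.5th percentile of treated lists 1 and 2. The next were at chr10:54631201-54631608 and chr10:64937691-64938025, with mean percentiles of 82.4 and 80.6. The set held 1 region without treated list 2, 4 without treated list 1 and 11 with the upper part of the pooled scores.

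Peaks of the stretch held middling to low ranks in their lists. The median score percentile, where 100 is the strongest peak of a list, was 43.6, 55.6 and 20.7 in treated lists 1, 2 and 3 and 45.7 and 52.4 in untreated lists 1 and 2. Groups averaged 40.0 ± 17.7 (SD, n = 3) in treated and 49.1 ± 4.69 (SD, n = 2) in untreated lists, a difference of -9.09 (exact permutation p = 0.8), which became 0.53 without treated list 3. Within lists, members lay below the rest in treated list 1 (43.6 against 50.3), treated list 3 (20.7 against 51.0) and untreated list 1 (45.7 against 50.5). They lay above it in treated list 2 (55.6 against 47.0) and untreated list 2 (52.4 against 49.9). The mean difference was -6.14 (exact sign-flip permutation p = 0.5), and -0.10 without treated list 3. With peaks above the median of the pooled scores it was -7.81, with members lower in 5 of 5 lists (exact sign-flip permutation p = 0.063), and against the rest of chromosome 10 outside 75 to 85 Mb it was -25.3 (exact sign-flip permutation p = 0.125).

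Top-ranked peaks were scarce in treated list 1 and both untreated lists, given that a whole list has about 10% above its 90th percentile. Treated list 2 was closer to that share, and treated list 3 had too few members to tell. Above the 90th percentile there were 5 of 314, 24 of 312 and 0 of 18 members in the treated lists, or 1.59%, 7.69% and 0%, and 2 of 109 and 2 of 85 in the untreated lists, or 1.83% and 2.35%. In treated list 3, 10 of the 18 members lay under the 25th percentile of the list. Without the bin at 43 to 44 Mb the median of treated list 2 was 58.1. Shared members ranked above private ones in treated list 1 (50.2 against 42.4), treated list 2 (63.3 against 51.9), treated list 3 (37.5 against 18.8) and untreated list 2 (62.0 against 46.1), but not in untreated list 1 (39 against 46.0).

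**Figure D4:**
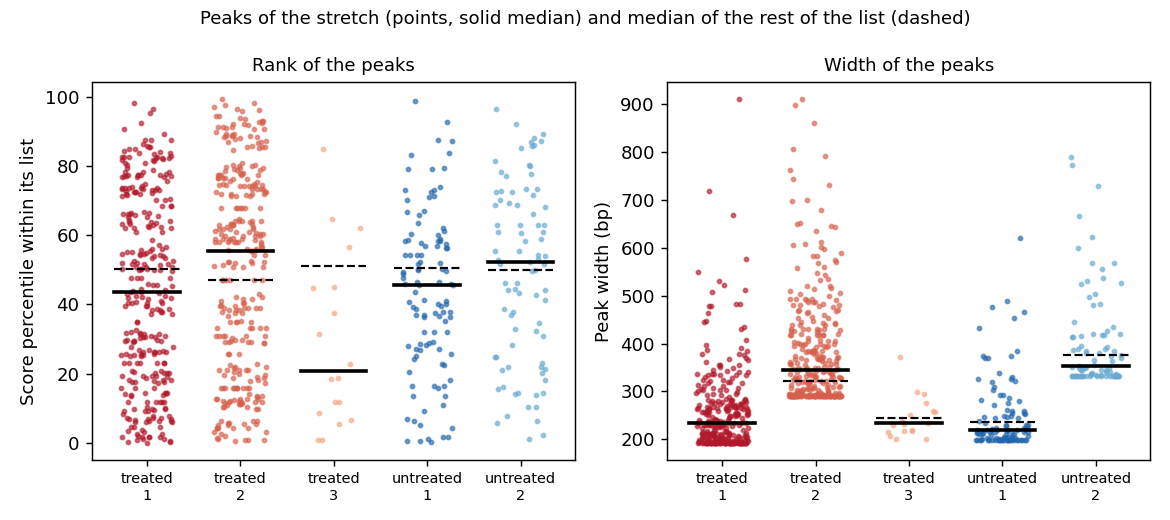
Score percentile within its list (left y axis, percentile) and width (right y axis, bp) of every peak of the stretch by list (x axis), with the median of the stretch as a solid and that of the rest of the list as a dashed line. The solid line of treated list 3 lies at 20.7, far under its dashed line at 51.0, and widths start at a different minimum in each list.

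Peak widths differed more between lists than between groups. The median width was 234, 345.5 and 233 bp in treated lists 1, 2 and 3 and 219 and 354 bp in untreated lists 1 and 2. The narrowest member was 193, 291 and 201 bp in the treated and 199 and 332 bp in the untreated lists, so the lists differed in the smallest peak recorded as well. The difference of the group means was -15.7 bp (exact permutation p = 0.9), and it was 51.8 bp without untreated list 2, 2.75 bp without treated list 1 and 3.25 bp without treated list 3. In the pairs with one run identifier the treated list was wider by 15 bp in the first pair (234 against 219 bp) and differed by -121 bp in the second (233 against 354 bp). Peaks of 700 bp or more numbered 2 of 314, 9 of 312 and 0 of 18 members in the treated lists. In the untreated lists they numbered 0 of 109 and 3 of 85, the last being the largest part of any list. Their share over whole lists is not given here.

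The difference in width from the rest of the list depended on which peaks were kept. The rest of the lists had medians of 233, 322 and 244 bp in the treated and 236 and 377 bp in the untreated libraries, a mean log2 ratio for the stretch of -0.03 (exact sign-flip permutation p = 0.5). Members were narrower in 5 of 5 lists with peaks above the median of the pooled scores (mean log2 ratio -0.07) and with equal numbers of top-scoring peaks (-0.12), each with an exact sign-flip permutation p of 0.063. The first setting left out many of the 18 members of treated list 3, and the second kept all of them. Against the rest of chromosome 10 outside 75 to 85 Mb the ratio was -0.12 (exact sign-flip permutation p = 0.3125). From 75 to 85 Mb peaks were wider in all 5 lists, with medians of 247, 380 and 255 bp in the treated and 247.5 and 416.5 bp in the untreated lists. The mean log2 ratio of 30 to 75 Mb over 75 to 85 Mb was -0.15 (exact sign-flip permutation p = 0.063, the smallest possible). Score percentiles did not differ between these stretches in one direction, with 3 lists higher and 2 lower in 30 to 75 Mb and a mean difference of 4.46 (exact sign-flip permutation p = 0.4375). Together the members covered 81.9, 120.1 and 4.42 kb in the treated and 27.2 and 34.3 kb in the untreated lists.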

How the data were processed

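p300 chromatin immunoprecipitation from PC3 cells was sequenced in 3 treated and 2 untreated libraries. Per the submitters' processing notes, the build was hg19 and MACS2 called the peaks. Aligner, versions, threshold and the input set against each library: not given in the sources used here. The authors deposited 1 peak list per library, giving position, name and score of every peak. No source names the scale of that deposited score, so it served for ranks within its list (percentile over the whole list). The alternative with peaks above the median of the pooled scores is the exception. It put 1 raw cut of 5.9 on all lists, and whether raw scores compare between lists is unknown. The median member score was below this cut in treated lists 2 and 3 (5.22 and 4.62) and untreated list 2 (5.36). Under it the direction of treated list 3 in width, rank and sharing therefore rests on few of its 18 members. Depth is unknown.

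The list was the replicate. Group differences used exact permutation of the lists, and differences within lists exact sign-flip permutation. No genome or annotation of hg19 was used, so no sequence is shown. Coordinates count from 1. Regions are merged peaks with an overlap of at least 1 bp. Break points minimised Poisson deviance over 1-Mb bins, with segments of at least 3 bins and bins wholly inside the peak-free run left out. Named regions were up to 10 in all 5 lists, in all treated only and in both untreated only, up to 5 in 4 lists, and the highest-scoring member of each list. The top regions in 2 or more treated lists, the bin at 43 to 44 Mb and the neighbouring regions were chosen after their values were seen. Members, lists and tests were chosen with earlier results of these data known. Counting was tested on simulated data. Alternatives covered score, list length, overlap, merging, bins, pairing and single lists. Python 3.11.15, numpy 2.4.6, pandas 2.3.3 and scipy 1.17.1 were used.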

Additional observations from a re-analysis of the deposited data

Results flagged for a closer look

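Treated and untreated lists with the same run identifier moved in opposite directions. With 1 list of each group in a pair, the difference between pairs was not tested. The number of peaks in the stretch gave log2 ratios of treated over untreated of 1.53 for treated list 1 and untreated list 1 and -2.24 for treated list 3 and untreated list 2. The share of the list differed by 1.67 percentage points in the first pair and -0.76 in the second. The median width differed by 15 bp in the first and -121 bp in the second. Whole lists differed in number in the same directions, with 4922 against 2313 peaks in the first pair and 528 against 2039 in the second. Outside the stretch the median widths were 233 against 236 bp in the first pair and 244 against 377 bp in the second. The opposite directions in number and the narrower treated list of the second pair are therefore not particular to the stretch.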

How the results depend on the processing

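Under the alternatives, 105 values kept their sign or stayed within 1.5-fold (break points: 1 Mb), 36 counts or break points moved further and 17 differences changed sign. These designs are too small for any difference to pass the usual threshold, so signs alone were compared. Peaks above the median of the pooled scores gave a percentile difference of 4.18 between the groups, 0 regions in all treated lists only, 11 in 2 or more treated lists only, and 0 and 5 bins with treated higher and lower. Equal numbers of top-scoring peaks gave a log2 ratio of peak numbers of -0.26, an overlap difference of -2.28 points, 0, 0, 2 and 0 regions in all 5 lists, all treated only, 2 or more treated only and both untreated only, break points at 39, 53 and 56 Mb, and 0 and 0 bins. Both settings hold fewer peaks. With 50% overlap 1 region was in both untreated lists only. In 2-Mb bins, where a segment has 6 Mb or more, break points were 38, 50 and 56 Mb, with 0 and 1 bins of treated higher and lower. Equal weight of the lists put the first break at 35 Mb, and bins of 10 or more peaks left 0 with treated higher. The cause was not tested beyond these constructions.

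Leaving out 1 list at a time, with 1 untreated list left in some cases, gave log2 ratios of peak numbers of 0.77 to 1.69, share differences of -1.19 to 0.45 points, width differences of -83.2 to 51.8 bp, percentile differences of -16.9 to 0.53 and overlap differences of -8.54 to 8.85 points. Within lists, sharing against the rest ran from -19.1 to -4.37 points, percentiles from -9.82 to -0.10 and log2 widths from -0.06 to -0.01. Regions in every remaining list numbered 1 to 2, in all treated only 1 to 26, in 2 or more treated only 1 to 35 and in all untreated only 2 to 75, as fewer lists change these definitions. Bins with treated higher numbered 1 to 8 and with treated lower 3 to 10.

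For the replicate block, same-numbered lists gave a share difference of 0.30 points, a width difference of 3.25 bp and a percentile difference of 0.53. All were opposite in sign to the unpaired values of the 5 lists. This pairing leaves out treated list 3, and leaving that list out without pairing gave the same values. The changes of sign are thus those of leaving out the list. The labels do not say that a number marks a shared batch. Deviations of same-numbered lists over 43 bins had r = 0.02 and 0.37. With 1 value per pair, these cannot decide whether the numbers pair the lists. Treated list 1 and untreated list 1 also share a run identifier. Pairing by run identifier, which leaves out treated list 2, gave a log2 ratio of peak numbers of -0.36 and a share difference of 0.45 points. Without that list the unpaired values were 0.78 and 0.45 points. Leaving out the bin at 43 to 44 Mb, chosen after seeing the data, changed no direction. Treated list 3, with 18 members, limits every value that needs all 5 lists.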
